A study of Mus musculus with 24 samples.

Results

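The T cell receptor complex and its proximal signalling genes were followed here as 9 genes of the 24421 counted in every library. They were chosen by symbol for their place in the receptor complex and its first signalling steps: the CD3 chains Cd3e, Cd3d and Cd3g, the zeta chain Cd247, the coreceptor chains Cd8a and Cd8b1, the kinases Lck and Zap70, and the adaptor Lat. All 9 were found in the files and passed the filter on low counts in each comparison. RNA was sequenced from T cells sorted for CD45, CD3 and CD8 from the pancreas or the blood of KC mice and of wild-type (WT) B6 mice, to follow infiltrating CD8 T cells as pancreatic cancer develops. KC is the labels' name for a mouse model whose pancreas develops preinvasive lesions. The labels give no alleles, and WT mice are described only as B6.

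KC pancreas gave 12 libraries: 3 of 4-week-old mice, 2 at 9 weeks, 3 at 13 weeks, and 2 each at 20 and 30 weeks. KC blood gave 9: 2 at 4 weeks, 1 at 9 weeks, 3 at 13 weeks, 1 at 20 weeks and 2 at 30 weeks. WT mice gave 2 pancreas libraries, of 9 and 30 weeks, and 1 blood library of 30 weeks. No label says that libraries of a group came from separate animals, so p-values measure the spread between libraries. Reads counted in genes ran from 6352070 to 16716169 per library. Levels are in CPM, the counts of a gene scaled to the library's total of reads in genes.

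In a T cell the antigen-binding receptor chains have no signalling tail of their own, and the CD3 and zeta chains that surround them carry the motifs that become phosphorylated. The CD8 coreceptor binds the class I molecule that presents the peptide and brings the kinase Lck to the receptor. Lck phosphorylates the CD3 and zeta chains, Zap70 docks there, and Zap70 phosphorylates the adaptor Lat, on which the downstream complexes assemble. CD3 and CD8 proteins were also the gates of the sort, so the presence of their transcripts checks the label and is no finding between the groups. The constant-region genes of the alpha and beta receptor chains were not analysed here under the symbols looked up.

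The CD3 genes lie next to each other on mouse chromosome 9 (GENCODE vM21, GRCm38, the assembly also called mm10). Cd3g covers chr9:44969572-44980431 on the minus strand, Cd3d chr9:44981786-44987339 on the plus strand and Cd3e chr9:44998740-45009627 on the minus strand. The gaps are 1354 bases between Cd3g and Cd3d and 11400 bases between Cd3d and Cd3e. The windows around their start sites are shown because these 3 neighbours stood at very unequal levels. They are RefSeq sequences of GRCm38.p6, from 250 bases before to 50 bases after the annotated start, 5′ to 3′ on the strand of the gene. Capitals mark matches on either strand. They mark the ETS core AGGAAG in the windows of Cd3e and Cd3d. They mark the E-box CAGGTG in all 3 windows. In the window of Cd3g they also mark AGATAA, a core read by GATA factors, and no matches overlap.
Cd3e promoter, chr9:45009562-45009861, minus strand: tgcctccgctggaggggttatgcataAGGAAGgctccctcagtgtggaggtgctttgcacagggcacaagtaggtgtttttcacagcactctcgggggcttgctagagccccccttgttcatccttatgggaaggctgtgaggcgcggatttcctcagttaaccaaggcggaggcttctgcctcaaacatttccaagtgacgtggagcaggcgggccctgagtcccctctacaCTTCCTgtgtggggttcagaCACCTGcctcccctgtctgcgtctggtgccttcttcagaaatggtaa
Cd3d promoter, chr9:44981536-44981835, plus strand: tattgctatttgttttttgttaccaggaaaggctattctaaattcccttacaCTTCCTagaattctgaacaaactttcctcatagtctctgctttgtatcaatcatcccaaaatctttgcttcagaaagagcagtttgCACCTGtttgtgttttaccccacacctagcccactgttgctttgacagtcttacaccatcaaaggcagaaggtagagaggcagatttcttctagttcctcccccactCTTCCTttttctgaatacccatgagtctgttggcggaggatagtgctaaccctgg
Cd3g promoter, chr9:44980382-44980681, minus strand: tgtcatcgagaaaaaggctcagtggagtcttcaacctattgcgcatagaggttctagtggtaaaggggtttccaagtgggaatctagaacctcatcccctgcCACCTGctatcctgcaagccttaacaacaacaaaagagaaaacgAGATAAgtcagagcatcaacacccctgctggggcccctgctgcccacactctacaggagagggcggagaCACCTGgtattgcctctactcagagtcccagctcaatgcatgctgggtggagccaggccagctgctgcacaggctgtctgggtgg
A window was found for 8 of the 9 genes and is not shown for Cd8b1. Lck had 2 windows and Zap70 had 3, which gave 11 windows in all. AGGAAG was present in 8 of the 11 windows, against 35.4% of all 32851 promoter windows of this length. CAGGTG was present in 8 of the 11, against 20.2%, and TGTGGT (a RUNX core) in 3 of the 11, against 16.8%. The letters AGATAA were found in 1 of the 11, against 11.2%, and TATAAA in 0 of the 11, against 13.6%. These are matches of letters and describe the windows only.

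Each of the 9 genes had counts in all 24 libraries, and together they took 0.633% to 1.91% of the gene counts of a library. Cd3e, the epsilon chain that pairs with both delta and gamma, led in every library. It held 1581851 counts over the 24 libraries, ranked between 4 and 10 among all genes of a library, and made up 50.4% to 82.1% of the counts of the 9 genes. Cd8a followed with 323977 counts in all, Cd8b1 with 219657 and Cd3g with 116344. At the other end Zap70 had 8020 counts in all, between 6 and 2073 per library, so its lowest values rest on few reads.

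Per length, in mean CPM per kilobase of annotated exon over the 24 libraries (± SD), Cd3e stood at 4689 ± 1924, above every other gene of the group in 24 of 24 libraries. Cd8b1 (608 ± 230), Cd3g (488 ± 309) and Cd8a (427 ± 161) formed a middle group whose order changed between libraries: Cd8b1 was above Cd3g in 16 of 24 and Cd3g above Cd8a in 10 of 24. Cd3d (195 ± 81.2) was below Cd8a in 23 of 24 libraries and above Lat (166 ± 74.1) in 17 of 24. Lck (86.3 ± 48.4), Cd247 (29.2 ± 23.5) and Zap70 (15.1 ± 23.7) came last, each above the next in 20 of 24 libraries. The means of Cd8b1, Cd3g and Cd8a, of Cd3d and Lat, and of Cd247 and Zap70 differed by less than the larger of their SDs.

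**Figure D1:**
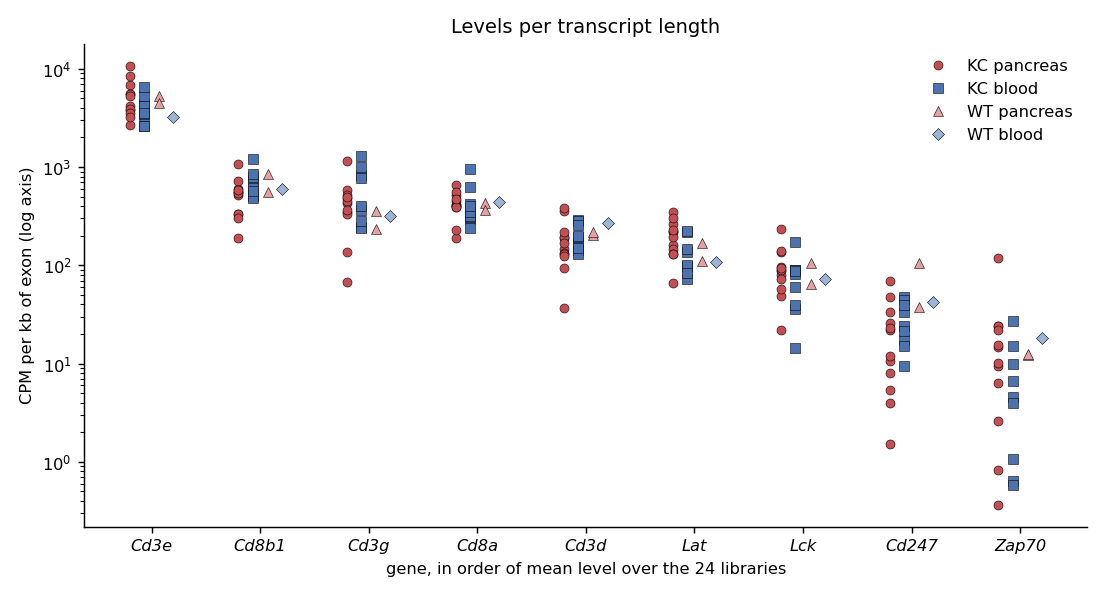
Level of each of the 9 genes in CPM per kilobase of exon (log axis), 1 point per library, with KC pancreas, KC blood, WT pancreas and WT blood from left to right within each gene. Genes are ordered by their mean over the 24 libraries, and the Cd3e points lie above those of all other genes in their own library.

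The subunits of 1 complex were thus not found at equal transcript levels. Per length, Cd3e exceeded Cd3d by a median of 21.3-fold (range 10.1 to 294), Cd3g by 9.40-fold (3.39 to 123) and Cd247 by 145-fold (42.5 to 6994) over the 24 libraries. The chains of the CD8 coreceptor were closer, with a Cd8a to Cd8b1 ratio of 0.664 (0.367 to 2.14). The files give no strand setting for the counting, so reads of Cd3e and of an annotated antisense transcript over it cannot be told apart. Pou2f1, on the opposite strand, overlaps Cd247 and is itself a counted gene. Whether reads over both were counted to either or left out as ambiguous is not given.

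Of the 9 genes, 8 varied less between libraries than the median expressed gene. Their coefficients of variation over the 24 libraries were 37.7% for Cd8a, 37.8% for Cd8b1, 41.03% for Cd3e, 41.5% for Cd3d, 44.8% for Lat, 56.1% for Lck, 63.4% for Cd3g and 80.5% for Cd247. The median over 7171 genes with a mean of at least 10 CPM was 110%, and 1.53% to 26.9% of those genes varied less than these 8. Zap70, with 157%, varied more than 77.5% of them. The 7171 genes were not matched to the 9 for level, and the means of the 9 ran from 33.8 CPM (Zap70) to 6856 CPM (Cd3e).

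They did not vary together. The correlation of each gene with the mean of the other 8, on log2(CPM + 1) over the 24 libraries, ran from -0.32 (Cd247) to 0.24 (Lck). As a description, the genes whose level was most like the mean of the 9 were Coro1a, a leukocyte actin regulator (Pearson r = 0.75 over the 24 libraries, which share depth and scaling), Chmp1a (0.71), Ephx1 (0.68), Slc16a5 (0.68) and Map1lc3b (0.67). None of these 5 is in the receptor pathway lists used below.

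A single library held many of the extremes. KC pancreas replicate 2, of 13 weeks, had the highest Cd3e (15654 CPM), Lck (548 CPM) and Zap70 (268 CPM) of all 24 libraries. The same library had the lowest Cd3d (58.8 CPM), Cd247 (6.98 CPM) and Cd8a (587 CPM). The other 13-week KC pancreas libraries had Cd247 at 17.9 and 24.3 CPM, so the 3 lowest Cd247 values of the series all came from KC pancreas at 13 weeks.

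The libraries were also split into 2 sets by traces of transcripts that are high in 1 library and appear at low levels in certain others. From 95 such genes of 14 source libraries, traces were detected in 92.4% of cases within a set and in 47.7% of cases across sets. The split was chosen to widen this gap on the same genes, so the gap describes the sets and does not test them. Set 1 holds the 4-week KC libraries, the 3 KC pancreas libraries and 1 KC blood library of 13 weeks, and the WT libraries. Set 2 holds 2 KC blood libraries of 13 weeks and all KC libraries of 9, 20 and 30 weeks. Age and set are thus largely confounded, and genotype and set cannot be told apart in the comparisons of KC with WT. Values within a set are given beside several of the results they touch.

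The sort was checked against markers of other cells. Cd4, which marks helper T cells, totalled 6635 counts over the 24 libraries, and ran from 15.2 to 39.4 CPM in KC pancreas and from 13.3 to 37.1 CPM in KC blood. The summed level of 8 genes of CD4 and regulatory T cells was 67.8 to 471 CPM in KC pancreas and 32.5 to 482 CPM in KC blood, with none of the 8 at 0 in either group. Ctla4 led this list and alone reached 255 CPM in KC pancreas and 432 CPM in KC blood, while Cd4 stayed in the ranges above. Natural killer cell genes (11 in the files) summed to 9.69 to 352 CPM in KC pancreas and 1.73 to 298 CPM in KC blood, led by Eomes, a factor that activated CD8 T cells also express; Ncr1, which defines these cells, had 18 counts in 3 libraries. B cell genes (15 in the files), led by the class II chaperone Cd74, summed to 15.9 to 953 CPM in KC pancreas and 22.0 to 324 CPM in KC blood. Myeloid genes (16 in the files) summed to 11.7 to 791 CPM in KC pancreas and 62.7 to 627 CPM in KC blood. Fibroblast and endothelial genes (14 in the files), led by Thy1, which T cells also express, summed to 34.98 to 968 CPM in KC pancreas and 34.9 to 783 CPM in KC blood. Pancreatic acinar genes (30 in the files) summed to 0.131 to 11225 CPM in KC pancreas, 0.237 to 92.9 CPM in KC blood, 1361 and 4808 CPM in WT pancreas and 94.2 CPM in WT blood. Platelet genes (10 in the files) summed to 1.89 to 101 CPM in KC pancreas and 70.6 to 292 CPM in KC blood, and erythroid genes (10 in the files) to 4.13 to 94.1 CPM in KC pancreas and 24.4 to 495 CPM in KC blood. Of the erythroid genes 6, Car1 and the globin genes, had no counts in any library, and Bpgm led the rest. In such bulk samples fewer cells of a type and less RNA per cell cannot be told apart, and the part of these transcripts in the results below was not tested.

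KC pancreas was compared with KC blood to ask how T cells of the affected organ differ from circulating ones. None of the 9 genes differed at an adjusted p under 0.05 (edgeR quasi-likelihood test with age as a factor and Benjamini-Hochberg adjustment over 11059 genes), where 10 genes, or 0.0904%, were called in either direction. At an unadjusted p under 0.05 there was 1 of the 9 (Zap70), where 9.85% of all genes tested passed. DESeq2, which called 487 of 15248 genes fitted, called 0 of the 9, with 2 at an unadjusted p under 0.05. Shares of all genes at an unadjusted p are given here and below for edgeR only. The groups overlapped for all 9 genes.

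**Figure D2:**
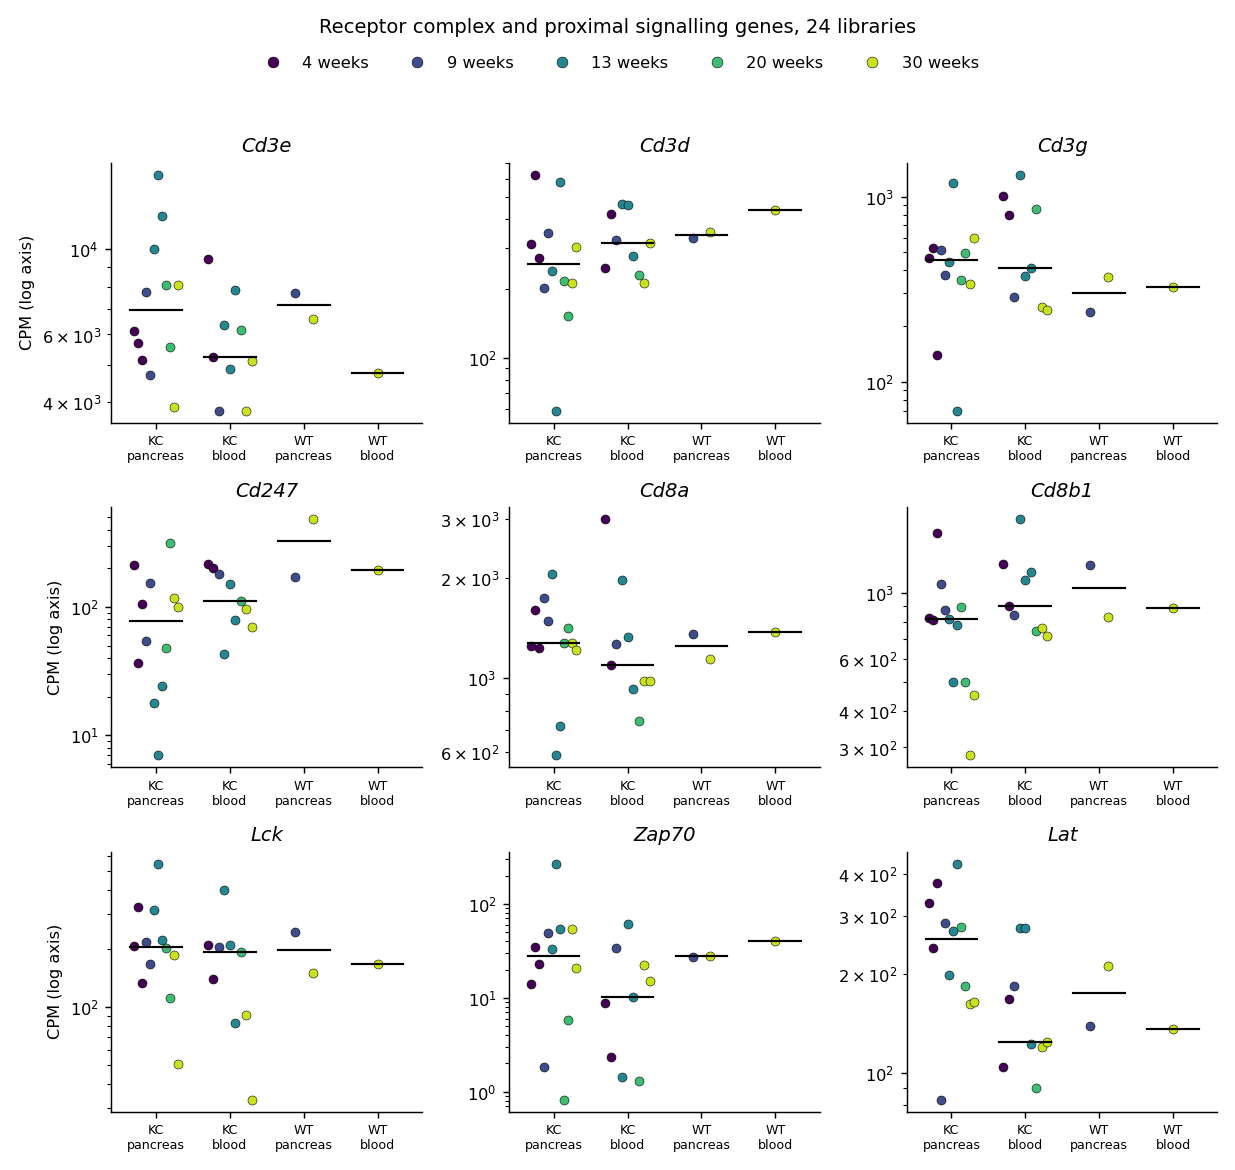
CPM of each gene (log axes with different ranges), 1 point per library, coloured by age, in KC pancreas, KC blood, WT pancreas and WT blood; horizontal lines are group medians. KC pancreas and KC blood overlap in every panel, and Zap70 and Cd247 spread the most.

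Among the receptor subunits, Cd3e had a lowest, median and highest level of 3879, 6933 and 15654 CPM in KC pancreas, against 3791, 5248 and 9446 CPM in KC blood. The 3 highest libraries were the KC pancreas libraries of 13 weeks, and the remaining values of the groups were interleaved. The fitted log2 difference was 0.62 ± 0.33 (SE; 95% interval -0.05 to 1.29; edgeR adjusted p = 0.548). It had the other sign, -0.46, within set 1 alone and was 0.96 within set 2 alone, where neither passed the test.

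For the other subunits the estimates were near or below 0. Cd3d, the delta chain, had 58.8, 255 and 624 CPM (lowest, median and highest) in KC pancreas, against 211, 317 and 465 CPM in KC blood, a log2 difference of 0.04 ± 0.42 (edgeR adjusted p = 0.989). Cd3g, the gamma chain, had 69.7, 453 and 1178 CPM in KC pancreas, against 244, 410 and 1312 CPM in KC blood (-0.19 ± 0.49, adjusted p = 0.941). Cd247, which carries the most signalling motifs of the complex, had 6.98, 77.6 and 313 CPM in KC pancreas, against 43.1, 111 and 217 CPM in KC blood (-0.66 ± 0.61, adjusted p = 0.794). The spread of Cd3d and of Cd247 was wider in KC pancreas at both ends. These signs too depended on the set: Cd3g was at -1.73 within set 1 and 0.77 within set 2, and Cd247 at -1.55 and 0.57. Cd3d was at -0.58 within set 1, and had the other sign in 9 of 30 alternative fits.

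For both coreceptor chains the interval of the difference included 0. Cd8a had 587, 1277 and 2064 CPM in KC pancreas, against 742, 1094 and 3003 CPM in KC blood, with a log2 difference of 0.05 ± 0.38 (95% interval -0.71 to 0.80, edgeR adjusted p = 0.986). Cd8b1 had 282, 815 and 1597 CPM in KC pancreas, against 714, 906 and 1776 CPM in KC blood, with -0.31 ± 0.36 (-1.04 to 0.41, adjusted p = 0.844). Within sets 1 and 2 the difference of Cd8a was -1.29 and 1.02, and it had the other sign in 12 of 30 alternative fits. That of Cd8b1 was -1.04 and 0.11 within the sets. The lower ends of the KC pancreas ranges come from the 13-week replicate 2 for Cd8a and from a 30-week library for Cd8b1.

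Of the kinases and the adaptor, Zap70 had the largest estimate of the 9. Zap70 had 0.817, 28.0 and 268 CPM in KC pancreas, against 1.30, 10.2 and 60.7 CPM in KC blood. In KC pancreas it was under 6 CPM in 3 libraries, 1 of 9 weeks and both of 20 weeks, and in KC blood it was under 3 CPM in 3 libraries, of 4, 13 and 20 weeks. The log2 difference was 1.86 ± 0.84 (95% interval 0.17 to 3.54, unadjusted p = 0.0312, edgeR adjusted p = 0.451). It was positive in all 30 alternative fits, between 1.05 (set 2 alone) and 2.52 (no age term), with a smallest adjusted p of 0.0682 (DESeq2), and 1.39 without the 13-week KC pancreas replicate 2.

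Lat had 83.0, 254 and 431 CPM in KC pancreas, against 90.5, 125 and 276 CPM in KC blood. The log2 difference was 0.87 ± 0.45 (95% interval -0.03 to 1.76, edgeR adjusted p = 0.526), and was positive in all 30 alternative fits. Lck had 50.7, 204.1 and 548 CPM in KC pancreas, against 33.1, 191 and 400.0 CPM in KC blood (0.55 ± 0.48, edgeR adjusted p = 0.767). The Lck difference had the other sign, -0.33, within set 1 alone. The Lck values of the groups were interleaved over most of their range. The Lat values overlapped, but several KC pancreas libraries lay above the highest KC blood library (276 CPM).

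The directions depended on the set of libraries. Over the 9 genes, 6 differences were positive and 3 negative (median 0.05, against -0.12 over all genes tested). Within set 1 alone 2 were positive and 7 negative, with a median of -0.58, against 0.11 over all genes. Within set 2 alone all 9 were positive, with a median of 0.82, against -0.05 over all genes. None of the 9 passed the adjusted test in either set, and the groups have different ages in the sets.

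**Figure D3:**
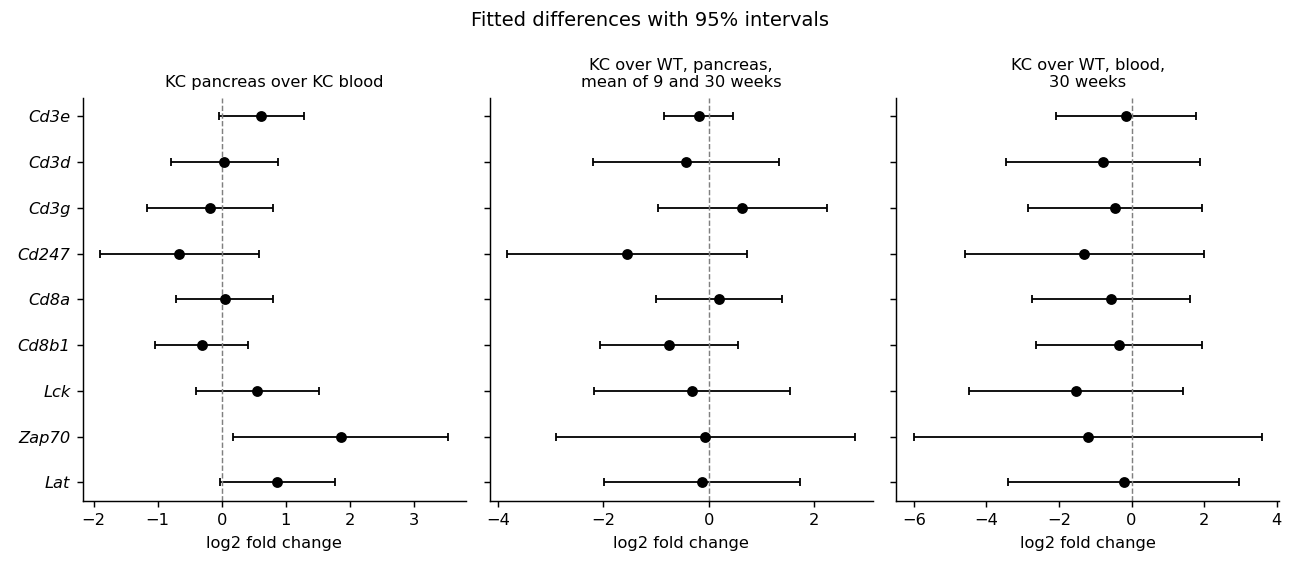
Fitted log2 fold changes of the 9 genes with 95% intervals (edgeR): KC pancreas over KC blood, KC over WT pancreas, and KC over WT blood. Every interval includes 0 except that of Zap70 in the first panel, which runs from 0.17 to 3.54 before adjustment.

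Ratios of counts within a library do not depend on scaling. For 3 of them, two-sided exact permutation tests over libraries were run with no age term and adjusted over the 3. The Cd8b1 share of Cd8a plus Cd8b1 counts was 37.0% ± 11.1 in KC pancreas (SD, n = 12) and 44.3% ± 7.28 in KC blood (SD, n = 9; exact permutation p = 0.0986, adjusted p = 0.296). The Cd247 share of the counts of the 4 CD3 and zeta chain genes was 1.52% ± 1.49 in KC pancreas and 1.99% ± 1.08 in KC blood (exact p = 0.432, adjusted p = 0.647). The Cd4 share of Cd4 plus Cd8a counts, the measure of helper cell RNA, was 2.57% ± 1.41 in KC pancreas and 2.30% ± 1.08 in KC blood (exact p = 0.662, adjusted p = 0.662). None of the 3 passed the test. Within sets 1 and 2 the Cd4 share differed by 1.34 and -0.592 percentage points and the Cd247 share by -0.878 and 0.0105 points, with no adjusted p under 0.05.

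For the coreceptor the sets differed. Within set 2 the Cd8b1 share was 31.3% ± 8.92 in KC pancreas (18.1% to 41.2%, n = 6) and 46.2% ± 5.84 in KC blood (40.0% to 55.9%, n = 6; exact permutation p = 0.00433, adjusted p = 0.013). Within set 1 it was 42.6% ± 10.8 in KC pancreas (n = 6) and 40.7% ± 9.82 in KC blood (n = 3; exact p = 0.833). The split by set was chosen after the data were seen, and whether the difference itself differs between the sets was not tested. The test has no age term, and in set 2 the tissues differ in age, with 13-week libraries in KC blood only. In KC pancreas the lowest shares were 18.1% and 27.0% at 30 weeks and 26.0% at 20 weeks, all in set 2.

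**Figure D4:**
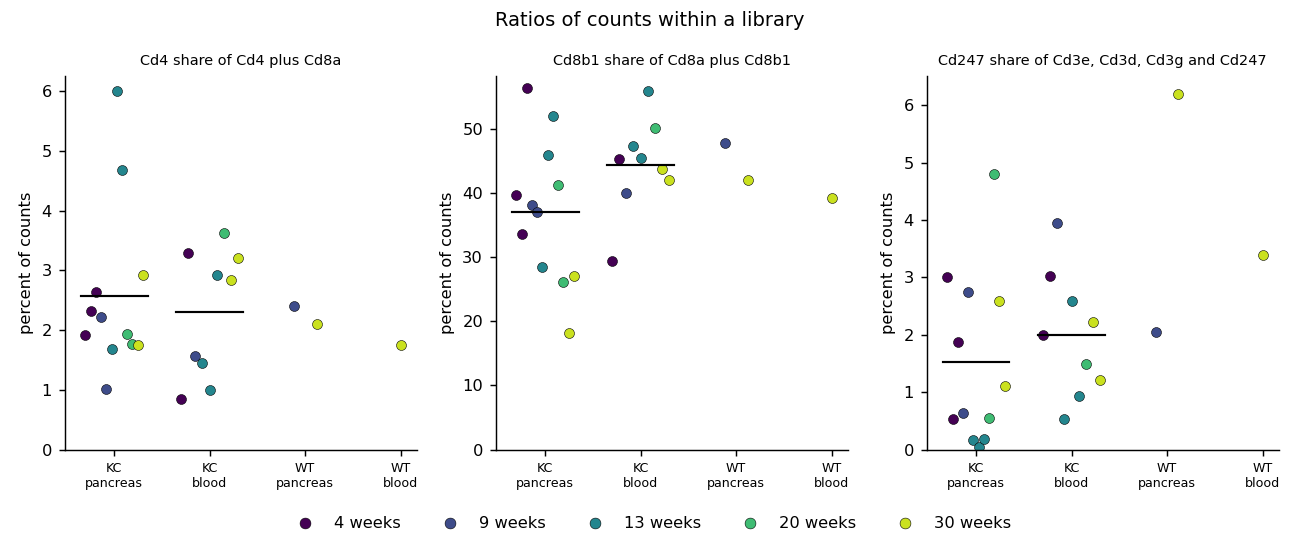
Ratios of counts within a library, in percent, 1 point per library coloured by age: Cd4 in Cd4 plus Cd8a, Cd8b1 in Cd8a plus Cd8b1, and Cd247 in the 4 CD3 and zeta chain genes. Horizontal lines are means of KC pancreas and KC blood, whose points overlap in all 3 panels.

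Age was followed from 4 to 30 weeks in each tissue of KC mice. In KC pancreas none of the 9 genes had a slope at an adjusted p under 0.05 (edgeR, 9555 genes, of which 28, or 0.293%, were called). None passed an unadjusted p under 0.05 either, where 8.95% of all genes did. DESeq2, which called 735 of 14417 genes fitted, also gave 0 of the 9 by both measures. The slopes, in log2 per 10 weeks, were 2 positive and 7 negative with a median of -0.17, against -0.04 over all genes. With the library set as a term 7 were positive and 2 negative. In the fit without the set all 22 tested acinar genes had negative slopes, with a median of -5.71 and 13 called, and 2 of 8 tested fibroblast and endothelial genes were called lower; their part in the slopes of the 9 genes was not tested.

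Cd8b1 had the steepest pancreatic slope, -0.54 ± 0.29 (95% interval -1.14 to 0.06, edgeR adjusted p = 0.636), negative in all 17 alternative fits. It had 823, 813 and 1597 CPM at 4 weeks, 1077 and 875 CPM at 9 weeks, 818, 499 and 777 CPM at 13 weeks, 897 and 498 CPM at 20 weeks, and 282 and 449.9 CPM at 30 weeks. The 30-week libraries were the lowest of the 12. Cd8a, its partner chain, showed no such order: it had 1247, 1609 and 1238 CPM at 4 weeks and 1273 and 1217 CPM at 30 weeks (slope -0.01 ± 0.24, adjusted p = 0.999).

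Cd3e in KC pancreas was highest in the middle of the series. It had 6143, 5694 and 5132 CPM at 4 weeks, 7724 and 4691 CPM at 9 weeks, 10005, 15654 and 12237 CPM at 13 weeks, 8073 and 5554 CPM at 20 weeks, and 3879 and 8079 CPM at 30 weeks. All 3 libraries of 13 weeks exceeded all 9 of the other ages, a comparison chosen after the values were seen, and the linear slope was -0.02 ± 0.39 (edgeR adjusted p = 0.995). These 3 libraries are in set 1, with those of 4 weeks, and the other ages are in set 2. The slope had the other sign in 7 of 17 alternative fits, and was 0.54 with the set as a term. In KC blood the 13-week libraries had 6364, 4871 and 7825 CPM, inside the range of the other ages.

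In KC blood all 9 slopes were negative, between -1.06 (Lck) and -0.05 (Zap70), with a median of -0.66 against -0.12 over all genes, 43.9% of which were positive. None passed the adjusted test (edgeR, 9933 genes, of which 0, or 0%, were called), and 2 passed an unadjusted p under 0.05, where 8.76% of all genes did. DESeq2, which called 412 of 14472 genes fitted, called 0 of the 9, with 1 at an unadjusted p under 0.05 and 4 given no adjusted p.

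The 2 genes were Cd8a, with a slope of -0.81 ± 0.37 (edgeR adjusted p = 0.536), and Cd3g, with -1.04 ± 0.49 (adjusted p = 0.562). Cd8a had 3003 and 1094 CPM at 4 weeks, 1264 CPM at 9 weeks, 1979, 1327 and 929.7 CPM at 13 weeks, 742 CPM at 20 weeks, and 982 and 984 CPM at 30 weeks. Cd3g had 1014 and 798 CPM at 4 weeks, 289 CPM at 9 weeks, 1312, 373 and 410.3 CPM at 13 weeks, 854 CPM at 20 weeks, and 252 and 244 CPM at 30 weeks. The 30-week Cd3g values were the lowest of KC blood, but the 9-week value was close to them. With the library set as a term the slopes rest on the ages within each set, and 13 weeks is the only age in both. In that fit the median of the 9 slopes was -0.05, with Cd8a at -0.05 and Cd3g at 0.07. In the same fit without the set, 14 of 14 tested acinar genes also had negative slopes in blood, with a median of -3.21 and none at an adjusted p under 0.05; their part in the slopes of the 9 genes was not tested.

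The slopes in pancreas and blood were compared directly in 1 fit. None of the 9 genes differed at an adjusted p under 0.05 (edgeR interaction of tissue and age, 11059 genes, of which 6, or 0.0543%, were called). Cd8a alone passed an unadjusted p under 0.05 (8.32% of all genes did), with a slope higher in KC pancreas by 0.82 ± 0.39 (edgeR adjusted p = 0.568). DESeq2, which called 343 of 15248 genes fitted, likewise called 0 of the 9, with 1 at an unadjusted p under 0.05. The difference was positive for 8 of the 9, with a median of 0.60 against 0.07 over all genes. For Cd8a, Cd3g, Cd247, Cd3e, Cd3d, Lck and Lat it was positive in all 27 alternative fits, none of which called it.

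**Figure D5:**
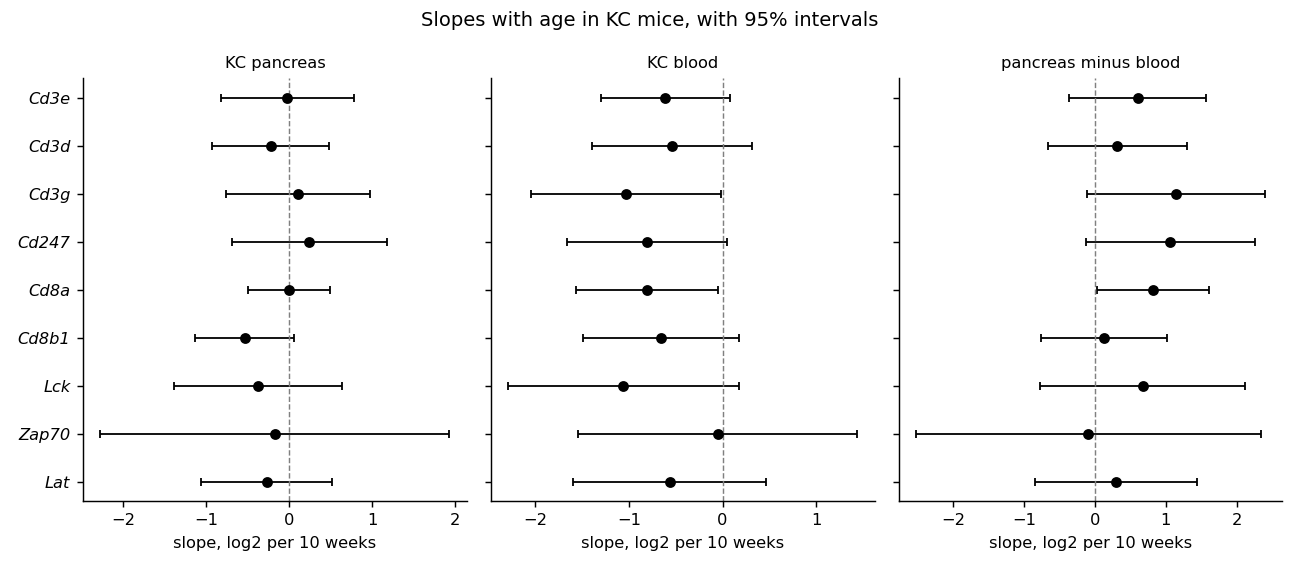
Slopes with age in log2 per 10 weeks with 95% intervals (edgeR), in KC pancreas, in KC blood, and as the difference of KC pancreas minus KC blood. The blood slopes lie below 0 for all 9 genes, and every interval includes 0 except those of Cd3g and Cd8a in blood and of Cd8a in the difference, before adjustment.

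KC was compared with WT pancreas at 9 and 30 weeks, with 4 KC and 2 WT libraries entering the contrast. These KC libraries are all in set 2 and the WT libraries in set 1, so genotype and library set cannot be told apart here. None of the 9 genes differed at an adjusted p under 0.05 or at an unadjusted p under 0.05 (edgeR, 12374 genes, of which 28, or 0.226%, and 717, or 5.79%, passed). DESeq2, which called 175 of 14570 genes fitted, also gave 0 of the 9 by both measures. Cd247 had the largest estimate. At 9 weeks it had 54.7 and 153 CPM in KC pancreas, against 173 CPM in WT pancreas, and at 30 weeks 118 and 100.4 CPM in KC pancreas, against 483 CPM in WT pancreas. The WT values were the higher ones at both ages, with a log2 difference of -1.56 ± 1.16 (95% interval -3.83 to 0.72, adjusted p = 0.907), negative in all 12 alternative fits.

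The intervals of this comparison are wide. The narrowest, that of Cd3e, ran from -0.84 to 0.46 around -0.19, and that of Zap70 from -2.91 to 2.79 around -0.06. Of the acinar genes, 21 of 26 tested were lower in KC pancreas in the same comparison (edgeR adjusted p under 0.05). The median over all genes tested was 0.41, against -0.19 over the 9 genes.

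In blood the comparison rests on 2 KC libraries and 1 WT library of 30 weeks, with the spread taken from the other ages. Here too the KC libraries are in set 2 and the WT library in set 1, so genotype and set cannot be told apart. None of the 9 genes differed at an adjusted or an unadjusted p under 0.05 (edgeR, 12496 genes, of which 0, or 0%, and 354, or 2.83%, passed). DESeq2 also gave 0 of the 9 by both measures. Lck, with 91.0 and 33.1 CPM in KC blood, against 167 CPM in WT blood, had the largest estimate (-1.53 ± 1.50, adjusted p = 1). All 9 estimates were negative, with a median of -0.56, against 0 over all genes tested, of which 49.5% were positive. They share the same 1 WT library, and that of Cd3e (-0.16 ± 0.98) was positive in 3 of 6 alternative fits.

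Between WT pancreas and WT blood of 30 weeks there was 1 library each and no test. Cd247 stood at 483 CPM in WT pancreas, against 193 CPM in WT blood, Lat at 212 against 136 CPM, and Cd3e at 6578 against 4748 CPM, all higher in pancreas. Zap70 had 28.0 CPM in WT pancreas, against 40.6 CPM in WT blood. Cd8a had 1144 CPM in WT pancreas, against 1377 CPM in WT blood, and both of its values lie inside the KC ranges.

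The wider receptor pathway was described through lists of other kinases, adaptors, negative regulators, downstream signalling genes, costimulatory and adhesion receptors, and of Trat1 and Ptcra, whose products associate with receptor chains. They hold 84 genes of the files, and none was called in any of the 6 comparisons with edgeR. For KC pancreas against KC blood, 82 were tested, 5 were higher and 3 lower at an unadjusted p under 0.05, a level that 9.85% of all genes passed, and their median was 0.16 against -0.12 over all genes. The smallest p-values were those of Prkd2, a protein kinase D acting downstream of diacylglycerol (1.54 ± 0.58, edgeR adjusted p = 0.316), Sos1, an exchange factor for Ras (-1.41 ± 0.54, adjusted p = 0.331), and Sh2d2a, an adaptor that binds Lck (1.22 ± 0.50, adjusted p = 0.377).

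The same lists were read for the age trends. In KC pancreas 1 of 82 pathway genes passed an unadjusted p under 0.05, which 8.95% of all genes did. It was Dok1, an inhibitory adaptor (3.24 ± 1.54 per 10 weeks, edgeR adjusted p = 0.539), followed by Sla2 and Dok2 (adjusted p = 0.625 and 0.678). In KC blood 1 of 81 was higher and 4 were lower at that level, against 8.76% of all genes in either direction. These included Socs1, an inhibitor of cytokine signalling, at -3.02 ± 0.95 (adjusted p = 0.400), the MAP kinase Mapk3 at -1.91 ± 0.65 (adjusted p = 0.425), and the calcium channel gene Itpr3 at 1.69 ± 0.72 (adjusted p = 0.514). The pathway median in blood was -0.24, against -0.12 over all genes. For the difference of slopes the smallest p-values were those of Sh2d2a (1.09 ± 0.48, adjusted p = 0.524), Csk, the kinase that inhibits Lck (1.55 ± 0.78, adjusted p = 0.603), and Pag1, which recruits Csk (0.71 ± 0.42, adjusted p = 0.686).

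Between KC and WT pancreas, Sh2d2a (2.13 ± 0.96, edgeR adjusted p = 0.811), the T cell surface gene Cd7 (-2.49 ± 1.25, adjusted p = 0.861) and the phosphatase gene Ptpn22 (1.69 ± 0.88, adjusted p = 0.865) had the smallest p-values. In blood these were the kinase gene Syk, the adaptor gene Sit1 and Socs1, each with an edgeR adjusted p of 1.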

How the data were processed

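Total RNA of the sorted cells was sequenced, and the authors deposited the number of reads of each gene as raw counts, whole numbers with no normalization. Per the submitters' processing notes, TopHat, SAMtools, HTSeq and DESeq were used with the mm10 build; versions, settings, annotation and strand use are not given in the sources used here. Of the tallied reads, 11.7% to 32.5% were assigned to genes and 48.6% to 69.7% to no feature; reads given to no gene were left out of library sizes.

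Two-sided tests ran on all genes that passed filterByExpr (minimum count 10) with the robust quasi-likelihood fit of edgeR 4.0.16 under R 4.3.3 after TMM normalization, with Benjamini-Hochberg adjustment over each comparison. The SE is the absolute log2 value over the square root of F, and 95% intervals use the t distribution of the fit. CPM and ratios were computed from the counts, and exon lengths came from GENCODE vM21. DESeq2 1.42.0, RLE scaling, no filter, leaving out libraries, blocks and library sets were alternatives. The fits were also run on simulated counts with a common spread for all genes and no library sets, so these do not test the fits under such sets.

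The 9 genes, the pathway and other-cell lists and the tests were chosen with earlier results of these data known. Pathway genes were named if called, and otherwise by the 3 smallest p-values per comparison; the 5 most similar genes by correlation. The trace rule for library sets took genes that reached 100 CPM in a library and stayed at or under 5% of its value in the others, from sources with 3 or more such genes. Libraries were moved between the sets as long as the gap in detection within and across sets grew.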

Additional observations from a re-analysis of the deposited data

Results flagged for a closer look

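Of 12 sets of values checked (levels of the 9 genes and the 3 ratios in KC blood), 2 held a library far from the others. Chance flags about 1 in 20 groups if values are normally distributed. Levels were checked as CPM without a log, for which this rate was not tested. Both were the same library, KC blood replicate 1, of 13 weeks. Its Cd8b1 level was 1776 CPM, against 1250 CPM in the next KC blood library, a gap of 0.496 of the whole range, where the limit for 9 libraries is 0.493. Its Lck level was 400.0 CPM, against 209 CPM in the next, a gap of 0.520 of the range. This library also had the highest Cd3g of all 24 libraries, 1312 CPM.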

How the results depend on the processing

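None of the 9 genes was called in any alternative, and their 54 single-gene values had the other sign in 88 of 954 refits. The number of all genes called moved by over 1.5 times in several. For KC pancreas against KC blood it was 10, and 487 with DESeq2, 34 with no filter on low counts, 65 with no age term, and 6 and 2 within library sets 1 and 2 alone. For the KC pancreas age trend it was 28, and 735 with DESeq2, 686 with no filter and 0 with the set as a term. For the KC blood age trend it was 0, and 412 with DESeq2 and 102 with no filter. For the difference of trends it was 6, and 343 with DESeq2, 0 with RLE scaling and 1 with the set as a term. For KC against WT pancreas it was 28, and 175 with DESeq2, 15 at 9 weeks alone and 8 at 30 weeks alone. For KC against WT blood it was 0, and 10 with DESeq2. The cause was not tested.

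Leaving out 1 library at a time gave 6 to 21 genes for KC pancreas against KC blood, 10 to 31 for the pancreas trend, 0 to 12 for the blood trend, 0 to 13 for the difference of trends, 4 to 17 for KC against WT pancreas and 0 for KC against WT blood. The difference of KC pancreas minus KC blood in the Cd8b1 share was -7.39 percentage points in all libraries, and between -9.26 and -5.68 with 1 library left out. It was 1.98 points within set 1 and -14.9 within set 2, where it passed the test (exact permutation with no age term, adjusted p = 0.013). The split by set was chosen after the data were seen. The Cd4 share moved between -0.0454 and 0.433 points and the Cd247 share between -0.769 and -0.226 points with 1 library left out.

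Titles of KC pancreas and blood libraries share numbers, which the labels do not call animals. Over 7 pairs the correlation of deviations ran from -0.0436 to 0.0176, and no library correlated best with its own number. The deviations were taken from means of only 2 or 3 libraries. At 30 weeks, with 2 libraries in each tissue, both pairs have the same value by construction. The check therefore cannot decide on pairing, and the numbers were used only as an alternative block. With them as a replicate block, 0 genes were called for the difference of trends, none of the 9 genes was called, and the paired differences of the shares were 0.447 points for Cd4, -8.31 for Cd8b1 and -0.430 for Cd247, none past the test.

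Zap70 had 6 counts in its lowest library and a log2 standard error of 0.84 between tissues. At this depth and spread its fitted difference of 1.86 did not pass the adjusted test, and no detection limit was computed for this gene.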
